A study of Mus musculus with 168 samples.

Results

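The microRNAs of the Mir17-92 cluster and its paralogs were examined in the cortex of mice that carry an allelic series of CAG expansions in Htt. The members were the 10 transcripts whose GENCODE vM21 gene name was Mir17, Mir18, Mir19a, Mir20a, Mir92-1, Mir92-2, Mir92b, Mir106a, Mir25 or Mir93, of 1626 transcripts in the count table and of 330 microRNAs eligible for testing. They held between 0.698% and 1.46% of the counts of a library, with a median of 1.05%.

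Small RNA was sequenced from the cortex of mice of 7 genotypes at 2, 6 and 10 months of age, 8 per group, with a separate mouse behind each library. Each of the 21 groups held 4 females and 4 males by cage; in 2 libraries (1 of Q20 at 10 months and 1 of Q80 at 2 months) the labels give the other sex, and the fits took that of the cage. Mutant mice were heterozygous for an Htt allele in which human HTT exon 1 with about 20 (Q20), 80 (Q80), 92 (Q92), 111 (Q111), 140 (Q140) or 175 (Q175) CAG repeats replaced the mouse exon, on a C57BL/6 background. WT mice were littermates of the Q20 line with 7 CAG, and WT and Q20 mice served as controls. The Q175 allele arose by spontaneous expansion in the Q140 line, so these 2 genotypes share an origin. At 2 and 10 months the mice of 1 genotype and sex came from about 1 cage, so cage and mutant genotype cannot be told apart, while WT and Q20 mice shared cages. Depth ranged from 2041741 to 11646287 estimated counts per library with a median of 4810487. The 8 libraries labelled WT at 6 months are shown apart.

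The Mir17-92 cluster is a polycistron, a primary transcript from which several hairpins are cut, and it is known for promoting proliferation and survival, for its induction by Myc and for its part in the growth of neural progenitors. Gene duplication gave rise to a paralog on the X chromosome (Mir106a-363) and another within Mcm7 (Mir106b-25). The mature microRNAs fall into families by their seed, the bases that pair with target transcripts, and members of a family share many targets.

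Mature sequences are shown for the arm known as the main product of each hairpin (RefSeq, GRCm38.p6), with the seed (bases 2 to 8) in capitals, because the seeds define the families compared here and identical sequences decide which counts can be told apart. The 4 members with the seed AAAGUGC were the following.
Mir17 (miR-17-5p): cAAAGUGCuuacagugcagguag
Mir20a (miR-20a-5p): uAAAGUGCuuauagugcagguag
Mir106a (miR-106a-5p): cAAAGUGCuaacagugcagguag
Mir93 (miR-93-5p): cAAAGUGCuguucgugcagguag

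The 4 members with the seed AUUGCAC were the following.
Mir92-1 (miR-92a-3p): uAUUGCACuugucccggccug
Mir92-2 (miR-92a-3p): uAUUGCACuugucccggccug
Mir92b (miR-92b-3p): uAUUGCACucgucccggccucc
Mir25 (miR-25-3p): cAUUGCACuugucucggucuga

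Mir18 and Mir19a each had a seed of their own.
Mir18 (miR-18a-5p): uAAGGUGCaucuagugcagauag
Mir19a (miR-19a-3p): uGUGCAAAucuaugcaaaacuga

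Counted from the 5′ end, with the base of the first-named member first, Mir17 and Mir106a differed by U10A, and Mir17 and Mir20a by C1U and C12U. Mir92-1 and Mir92-2 give the same mature sequence over all 21 bases, and the counts of both were fractional in every library. A read of miR-92a-3p therefore cannot be assigned to one of these loci, and the values of Mir92-1 and Mir92-2 are uncertain as levels of separate loci. Counts were summed per hairpin transcript, so the 5p and 3p arms were not separated.

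In GRCm38, Mir17, Mir18, Mir19a, Mir20a and Mir92-1 lay in this order on the plus strand of chromosome 14 (115043671 to 115044506, a span of 836 nucleotides), within an exon of the long noncoding host gene Mir17hg. Mir106a and Mir92-2 lay on the minus strand of chromosome X (52741838 to 52742567), and Mir106a overlapped an exon of the noncoding gene Kis2. Mir93 and Mir25 lay on the minus strand of chromosome 5 (138165321 to 138165610) within the protein-coding gene Mcm7, a subunit of the replicative helicase, and overlapped an exon of at least 1 of its annotated transcripts. Mir92b lay on chromosome 3 (89227116 to 89227198, minus strand) outside any other annotated gene.

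The members differed in level by orders of magnitude, within a cluster as well as between clusters. Per kb of hairpin transcript, and over the 160 libraries other than WT at 6 months, Mir92b had the highest level at 81709 ± 14192 CPM per kb (mean ± SD; CPM is the count scaled to a common library total after TMM normalization). Mir92-1 followed at 28373 ± 7184, Mir25 at 6484 ± 678 and Mir93 at 5217 ± 581 CPM per kb. The low end was Mir18 at 45.2 ± 13.1, Mir19a at 30.7 ± 11.2 and Mir106a at 4.52 ± 4.06 CPM per kb.

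Between these lay Mir92-2 at 768.1 ± 120, Mir17 at 444 ± 53.4 and Mir20a at 253 ± 30.6 CPM per kb. In the order of levels, 7 of the 9 neighbouring pairs kept their order in all 160 libraries. The exceptions were Mir25 above Mir93 in 149 libraries and Mir18 above Mir19a in 127. Mir106a had a median of 1 count per library and was at 0 in 46 of all libraries, so that differences in its level were mostly not detectable at this depth.

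**Figure D1:**
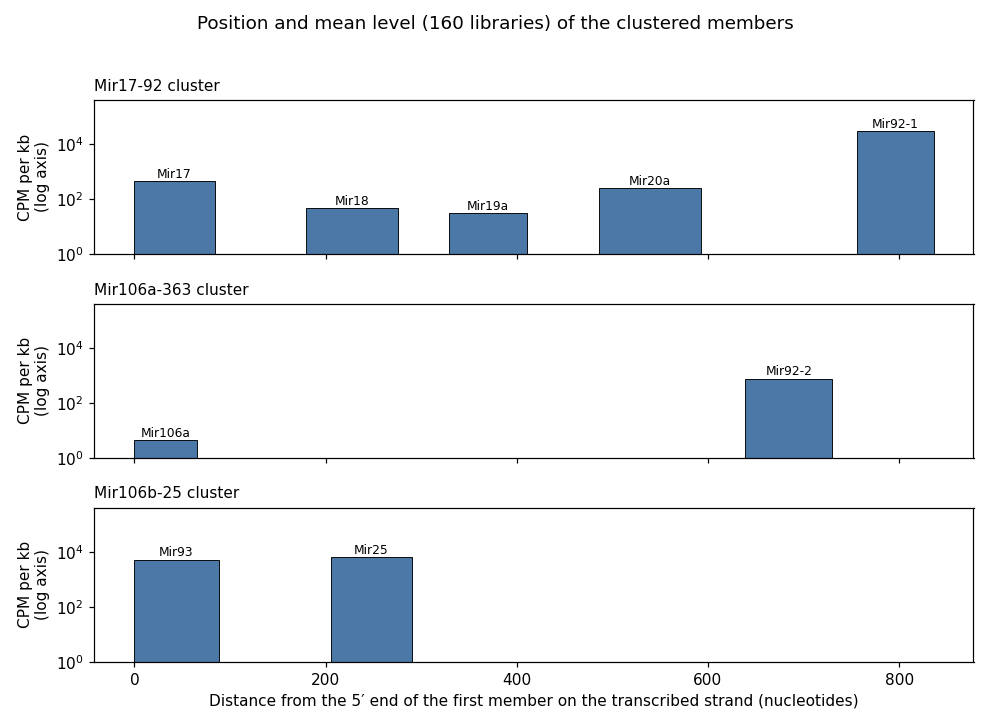
Members in the 3 clusters by distance from the 5′ end of the first member on the transcribed strand (x axis, nucleotides). Bar heights give the mean level over 160 libraries (y axis, CPM per kb, log axis starting at 1). Hairpins of these clusters that are not members, such as Mir106b and Mir363, are not drawn. Mir92-1, the last hairpin of Mir17-92, stands at 28373 CPM per kb beside 30.7 for Mir19a in the same cluster.

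To find out whether members followed the length of the CAG repeat, expression was regressed on CAG length (Q) at each age, with slopes given as log2 change per 100 CAG ± SE and with adjustment by the Benjamini-Hochberg method over all microRNAs tested (edgeR quasi-likelihood test, FDR 0.05). At 10 months Mir17, Mir92-1 and Mir92-2 rose with Q. Of the microRNAs tested at this age, 28 of 329 passed (8.51%), 14 of them upward (4.26%), against 3 of the 10 members, all upward. The calls of Mir92-1 and Mir92-2, which share their mature sequence, are not independent. The slope of Mir92-2 was 0.18 ± 0.04 (adjusted p = 0.00377), that of Mir92-1 was 0.13 ± 0.04 (0.0379) and that of Mir17 was 0.12 ± 0.03 (0.00956). The median slope was 0.12 over the 10 members and -0.01 over all microRNAs tested.

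Other members had slopes at 10 months that did not pass. Mir20a had a slope of 0.11 ± 0.04 (adjusted p = 0.0778, edgeR) and Mir92b of 0.07 ± 0.03 (0.0718). Mir92b passed in 4 of 14 alternatives, DESeq2 among them (adjusted p = 0.0445). Mir18 and Mir19a, the least abundant of the 5 members in Mir17-92, had slopes of 0.13 with SE of 0.09 and 0.10. Mir93 was at 0.03 ± 0.02 and Mir25 at -0.02 ± 0.04. The 2 members of the Mcm7 locus gave the slopes nearest to 0.

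At 2 months no member passed, of 328 microRNAs of which 0% passed. None of the 10 members was below an unadjusted p of 0.05 in edgeR, against 14 of 328 microRNAs, and DESeq2 called none of the members. Their slopes at this age lay between -0.08 for Mir19a and 0.07 for Mir18. At 6 months no member passed and 4 of 328 microRNAs did (1.22%). At that age 66 of 328 microRNAs were below an unadjusted p of 0.05 in edgeR. DESeq2 called no member, and 4 members were among the 66. These were Mir20a, with a slope of 0.17 ± 0.05 (adjusted p = 0.0606), Mir92-1 at 0.07 ± 0.03 (0.14), Mir92-2 at 0.09 ± 0.04 (0.229) and Mir25 at -0.08 ± 0.03 (0.14). Whether Mir20a passed at 6 months depended on choices of processing. It did under 8 of 16 alternatives (edgeR). Their adjusted p lay between 0.000714, with the 6-month WT libraries included, and 0.0476, with Mir92-1 left out.

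**Figure D2:**
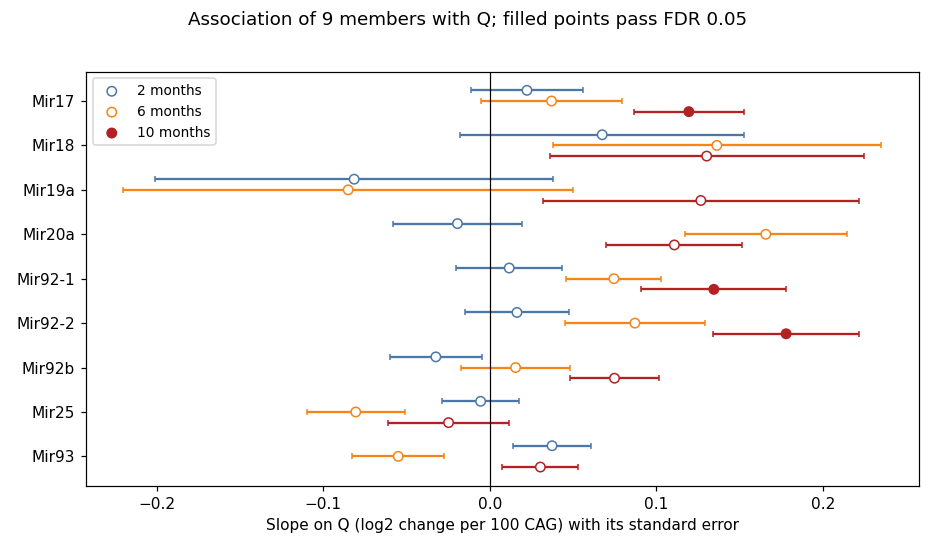
Slope on Q at 2, 6 and 10 months for 9 members (x axis, log2 change per 100 CAG; bars show the SE; filled points pass FDR 0.05). Mir106a is left out because its SE at 10 months was 0.33; the 10-month slopes of Mir17, Mir92-1 and Mir92-2 are filled, and Mir25 lies below 0 at each age.

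The meta-analysis of 6 and 10 months combined both Z statistics. Mir20a (Z = 4.13, adjusted p = 7.96e-04), Mir92-2 (4.11, 7.96e-04), Mir92-1 (3.87, 0.00205) and Mir17 (3.04, 0.022) rose with Q in it (edgeR). In all, 39 of 328 microRNAs passed (11.9%), 18 of them upward (5.49%), against 4 of 10 members. The 3 called members of the Mir17-92 cluster and Mir92-2 on the X chromosome had the same direction at both ages. Mir92-1 and Mir92-2 share their mature sequence, so these 2 calls are not independent. The median Z was 2.01 over the members and -0.07 over all microRNAs tested. Mir92b (2.24, 0.135), Mir18 (1.78, 0.238) and Mir106a (1.44, 0.362) did not pass, nor did Mir19a (0.49), Mir93 (-0.44) and Mir25 (-2.33, 0.111).

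When the Q175 mice were left out, Mir92-2 alone of the members passed in the meta-analysis (Z = 3.6, adjusted p = 0.0342, edgeR). Z fell to 0.26 for Mir17, and no member passed at 10 months. Over all microRNAs, 3 then passed in the meta-analysis, against 39 with all mice, and 1 at 10 months, against 28. Mir17, Mir20a and Mir92-1 thus lost their call without the longest repeat, as did most microRNAs called with all mice. The slopes at 10 months were then 0.13 for Mir92-1 and 0.19 for Mir92-2, close to those with all mice, but 0.04 for both Mir17 and Mir20a. Mir20a also lost its call in the meta-analysis when lane was a covariate at 6 months (Z = 2.73, adjusted p = 0.0584).

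Each mutant genotype was then compared with the controls of its age. In Q175 mice at 10 months, Mir17, Mir20a, Mir92-1 and Mir92-2 were higher than in the 16 controls. These were 4 of 10 members against 40 of 328 microRNAs in either direction (12.2%) and 18 upward (5.49%). Here too the calls of Mir92-1 and Mir92-2 are not independent. In the other 14 comparisons no member passed (edgeR), where 7 of 4575 tests over all microRNAs passed (0.153%). Of the 140 tests of members in them, 15 were below an unadjusted p of 0.05, and DESeq2 called none. Per comparison, between 4 of 327 (Q80 at 10 months) and 53 of 326 (Q175 at 6 months) of all microRNAs were below it.

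Mir17 gives miR-17-5p, the member for which the cluster is named and a repressor of cell-cycle inhibitors. At 10 months its level ranged from 31.9 to 40.1 CPM in WT mice (median 35.9), from 32.5 to 37.4 in Q20 (33.8) and from 36.5 to 47.6 in Q175 (41.7). Each of the 8 Q175 mice exceeded the control median and 5 exceeded the highest control, so the groups overlapped in part. The mean rose from 34.9 ± 2.62 (SD, n = 16) to 41.8 ± 3.57 CPM (n = 8), a log2 difference of 0.24 ± 0.05 (SE; adjusted p = 0.00207, edgeR). Q140 mice ranged from 34.2 to 41.0 CPM (39.0), while Q80, Q92 and Q111 had medians of 33.7, 34.2 and 35.1.

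Mir20a, from the same primary transcript and with the same seed, ranged from 22.7 to 31.3 CPM in WT (27.6), from 23.3 to 28.9 in Q20 (27.8) and from 26.5 to 38.4 in Q175 (31.3) at 10 months. In Q175, 7 of 8 mice lay above the control median and 4 above every control. The log2 difference was 0.23 ± 0.07 (adjusted p = 0.0355, edgeR). It passed in 7 of 13 alternatives, and it did not with lane as a covariate (0.0821) or with Q20 as the only controls (0.157).

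Mir92-1 and Mir92-2 both encode miR-92a, which is known from endothelial cells and from neural progenitors. At 10 months Mir92-1 ranged from 1538 to 1948 CPM in WT (1819), from 1415 to 1951 in Q20 (1808) and from 1815 to 2546 in Q175 (2044). Of the Q175 mice, 5 lay above every control, and the log2 difference was 0.21 ± 0.06 (adjusted p = 0.0233, edgeR). Q111 mice (1665 to 2529, median 2093) stood as high as Q175, and in Q140 mice (1554 to 3074, median 1845) a single library reached the upper end.

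Mir92-2 ranged at 10 months from 45.5 to 65.4 CPM in WT (57.0), from 49.3 to 65.6 in Q20 (62.5), from 56.4 to 88.3 in Q140 (72.1) and from 57.4 to 82.5 in Q175 (72.4). The medians of Q140 and Q175 were alike, and 6 of 8 Q175 mice lay above every control. The log2 difference between Q175 and controls was 0.26 ± 0.07 (adjusted p = 0.0151, edgeR). With Q20 as the only controls, Mir92-1 (adjusted p = 0.0971) and Mir92-2 (0.157) did not pass.

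Because reads of Mir92-1 and Mir92-2 cannot be told apart, they were also summed. Mir92-2 held between 2.01% and 4.50% of the sum (median 3.04%). The sum was 1841 ± 160 CPM in controls and 2147 ± 243 CPM in Q175 mice at 10 months.

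**Figure D3:**
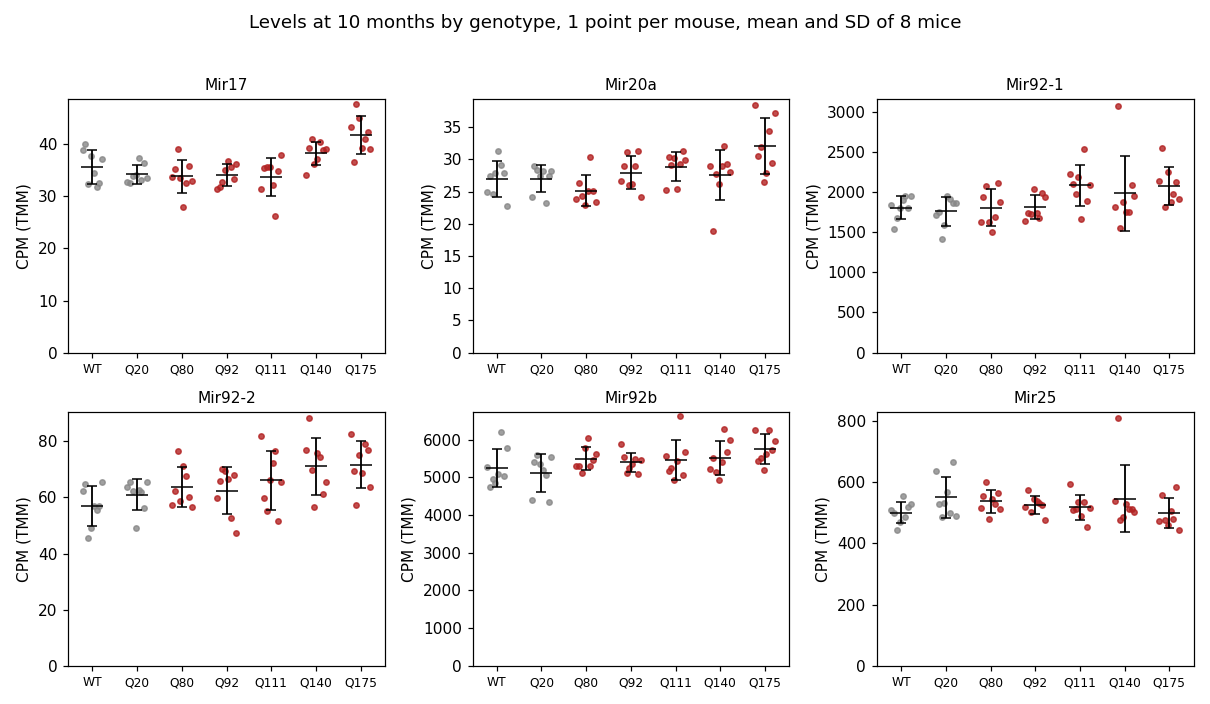
TMM-normalized CPM (y axis from 0) of 6 members at 10 months in 7 genotypes (x axis), 1 point per mouse, with the mean and SD of 8 mice; grey points are the controls. Q175 mice sit higher than controls for Mir17, Mir20a, Mir92-1 and Mir92-2, and Q140 mouse F2 stands apart in Mir92-1 and Mir25.

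Mir92b, the most abundant member, which shares the seed of miR-92a, ranged from 5184 to 6270 CPM in Q175 mice at 10 months (median 5664) and from 4338 to 6204 in the 16 controls (5145). Each of the 8 Q175 mice exceeded the control median, but the log2 difference of 0.13 ± 0.05 did not pass (adjusted p = 0.115, edgeR). Mir18 (0.35 ± 0.14, adjusted p = 0.103) and Mir19a (0.37 ± 0.16, 0.14), measured with a median of 20 and 12 counts per library, had larger differences with wide errors that did not pass either. Mir25 (-0.09 ± 0.06, 0.369) and Mir93 (0.05 ± 0.04, 0.52) did not pass.

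In Q175 mice at 6 months no member passed against Q20 controls (edgeR, where 3 of 326 microRNAs passed, 0.92%). Below an unadjusted p of 0.05 were 3 members and 53 of all 326 microRNAs, and DESeq2 called no member. Mir20a ranged from 22.7 to 31.7 CPM (median 28.2) against 19.6 to 25.2 (23.9) in Q20, and 7 of 8 Q175 mice lay above every Q20 mouse. The log2 difference was 0.26 ± 0.10 (adjusted p = 0.181, edgeR). None of the 8 Q175 mice was above the Q20 median for Mir25, whose log2 difference was -0.15 ± 0.05 (0.152).

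At 6 months, genotype was tied to sequencing lane. Comparisons were also run between genotypes that share lane numbers, Q175 against Q80, Q140 against Q92 and Q111 against Q20. These fits held no lane term, and the genotypes of a pair were spread unevenly over the shared lane numbers. Lane and genotype thus stayed partly tied. For Q111 against Q20 sex was not a covariate, because the Q111 libraries used were all female. No member passed in any of them (edgeR), where 1 of 325 (0.308%), 0 of 324 (0%) and 0 of 325 (0%) microRNAs passed. Below an unadjusted p of 0.05 were 2, 0 and 2 members against 46, 21 and 18 microRNAs in all, and DESeq2 called no member. Between Q175 and Q80 the log2 difference was 0.04 ± 0.11 for Mir20a and 0.24 ± 0.09 for Mir17 (adjusted p = 0.249) over 11 libraries.

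The slopes on Q at 10 and 2 months were compared in a joint fit. No member passed, of 329 microRNAs of which 4 passed (1.22%). Mir92-2 (difference of slopes 0.18 ± 0.05) and Mir92b (0.13 ± 0.04) lay at the threshold, each with an adjusted p of 0.0507 (edgeR). In all, 5 members were below an unadjusted p of 0.05, as were 43 of 329 microRNAs, and DESeq2 called no member. Male and female mice did not differ in any member beyond the threshold at any age (edgeR), and DESeq2 called none. Below an unadjusted p of 0.05 were 1, 0 and 1 members at 2, 6 and 10 months, against 21, 36 and 20 microRNAs in all. Of all microRNAs, 0.61% passed at 2 months, 0% at 6 months and 0.304% at 10 months.

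To see whether hairpins of 1 primary transcript moved apart, log2 ratios of neighbours were tested against Q by permutation of genotypes, 18 ratios in all. None passed, with adjusted p of at least 0.687. The ratio of Mir17 to Mir20a had slopes of 0.05 ± 0.05, -0.11 ± 0.06 and 0.01 ± 0.05 from the youngest to the oldest age. The ratio of Mir93 to Mir25 had slopes of 0.04 ± 0.03, 0.00 ± 0.04 and 0.06 ± 0.04.

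After removal of the genotype and age means, 39 of the 45 pairs of members had a Pearson r between -0.2 and 0.2 over 160 libraries, which share normalization and depth. The pairs with the highest r were Mir92-1 with Mir25 (0.51), Mir92-1 with Mir92-2 (0.35), Mir92-2 with Mir25 (0.31) and Mir17 with Mir93 (0.30). Mir17 and Mir20a, from 1 primary transcript, had an r of 0.06. Their median counts were 178.5 and 132.5 per library, and the part of counting noise in this r was not tested. The pair Mir25 and Mir20a had the lowest value (-0.27). Q140 mouse F2 at 10 months was far above its group in Mir25 and Mir92-1 and far below it in Mir20a. Its part in these values was not tested.

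Between 2 and 10 months, members moved in both directions in the 32 control mice. Of all microRNAs, 159 of 329 differed between these ages (48.3%), against 6 of 10 members, and age cannot be told apart from the set of libraries, since most libraries of these ages were on different lanes. Mir92b fell by 0.51 ± 0.04 on the log2 scale (adjusted p = 1.53e-11, edgeR), from 7340 ± 510 to 5179 ± 484 CPM. Mir93 rose by 0.31 ± 0.03 (1.21e-09), from 408 ± 25.0 to 505 ± 26.8 CPM. The ranges at 2 and 10 months did not overlap for either microRNA, and the share of all microRNAs with such a gap was not determined.

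Within Mir17-92, Mir17 fell by 0.21 ± 0.05 (adjusted p = 3.59e-04), Mir18 by 0.39 ± 0.12 (0.00835) and Mir92-1 by 0.13 ± 0.05 (0.0176, edgeR), while Mir20a was at -0.03 ± 0.05. Mir92-2 fell by 0.15 ± 0.05 (0.0124), and did not pass with Q20 as the only controls (0.237). Mir19a had a log2 difference of 0.32 ± 0.15 (0.0758), of opposite sign to Mir18 from the same transcript, and Mir106a one of -0.86 ± 0.44 (0.108). Mir25, next to Mir93 in Mcm7, was at 0.01 ± 0.05.

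**Figure D4:**
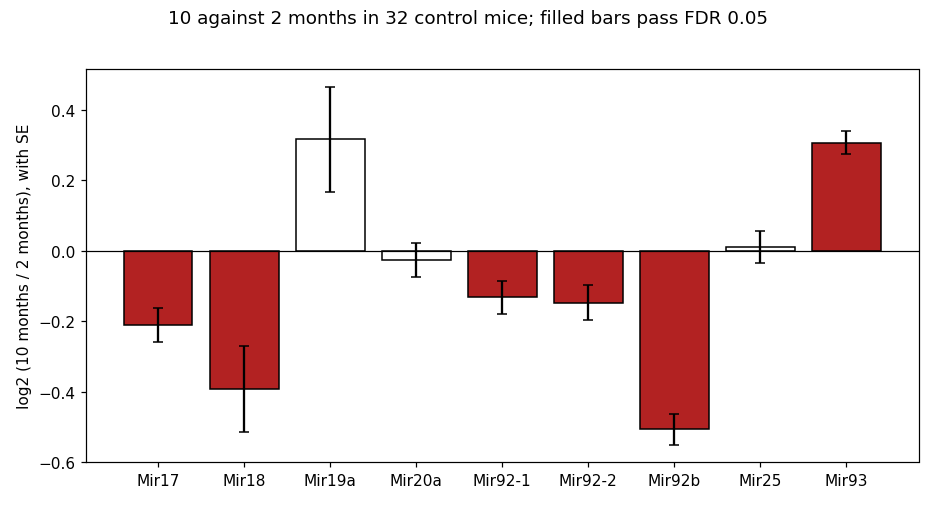
Log2 difference between 10 and 2 months in 32 control mice (y axis) for 9 members (x axis); bars show the estimate with its SE, and filled bars pass FDR 0.05. Mir92b fell by 0.51 and Mir93 rose by 0.31, while Mir20a and Mir25 lie near 0.

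Of the 18 relatives that were listed for comparison, 7 were eligible for testing, among them Mir106b, which shares the Mcm7 locus, and Mir363 and Mir19b-2 of the X-linked cluster. None passed for Q at any age or in any genotype comparison in edgeR, where 5 of 116 tests were below an unadjusted p of 0.05; DESeq2 called 1, Mir19b-2 in Q175 mice at 10 months (log2 difference 0.23 ± 0.08, adjusted p = 0.0422). In controls, Mir106b rose from 92.1 ± 3.76 to 104 ± 7.53 CPM between 2 and 10 months (log2 difference 0.17 ± 0.04, adjusted p = 1.32e-04, edgeR). Mir19b-2 rose by 0.21 ± 0.06 (0.00718), and Mir363, with a median of 10 counts per library, fell by 0.53 ± 0.21 (0.0342). Mir19b-2 shares its mature sequence with Mir19b-1, so its level as a separate locus is uncertain.

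The 8 libraries labelled WT at 6 months stood apart from the Q20 mice of that age in some members. All 8 lay below every Q20 mouse in Mir92-2 and Mir92b, and 7 did in Mir17 and Mir92-1. The other members overlapped more with Q20. The share of all microRNAs with such a gap was not determined. Mir92-2 ranged from 25.6 to 61.4 CPM in these WT libraries (median 30.8), below each of the 48 other libraries of that age. In Q20 it ranged from 71.6 to 86.4 CPM (77.2). Mir17 had a median of 23.2 CPM against 36.8, Mir92-1 of 2316 against 2979 and Mir92b of 6307 against 7610. In the opposite direction, Mir19a had a median of 3.88 CPM against 2.29, while Mir20a was alike at 24.5 and 23.9 CPM.

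All 8 of these libraries carried lane number 3, as did 3 of the Q20 libraries. Library numbers recur under this lane number at 6 months, so a shared lane cannot be assumed. The WT libraries of 6 months were left out of the tests because the methods list WT cortex at 2 and 10 months alone. With them as controls at 6 months, 6 members passed for Q, among them Mir92-2 (slope 0.46, adjusted p = 2.47e-04, edgeR) and Mir19a (-0.46, 0.00301). Over all microRNAs, 163 then passed, against 4 without these libraries. The outcome at this age thus rests on whether these libraries are used, for the members as for microRNAs at large.

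**Figure D5:**
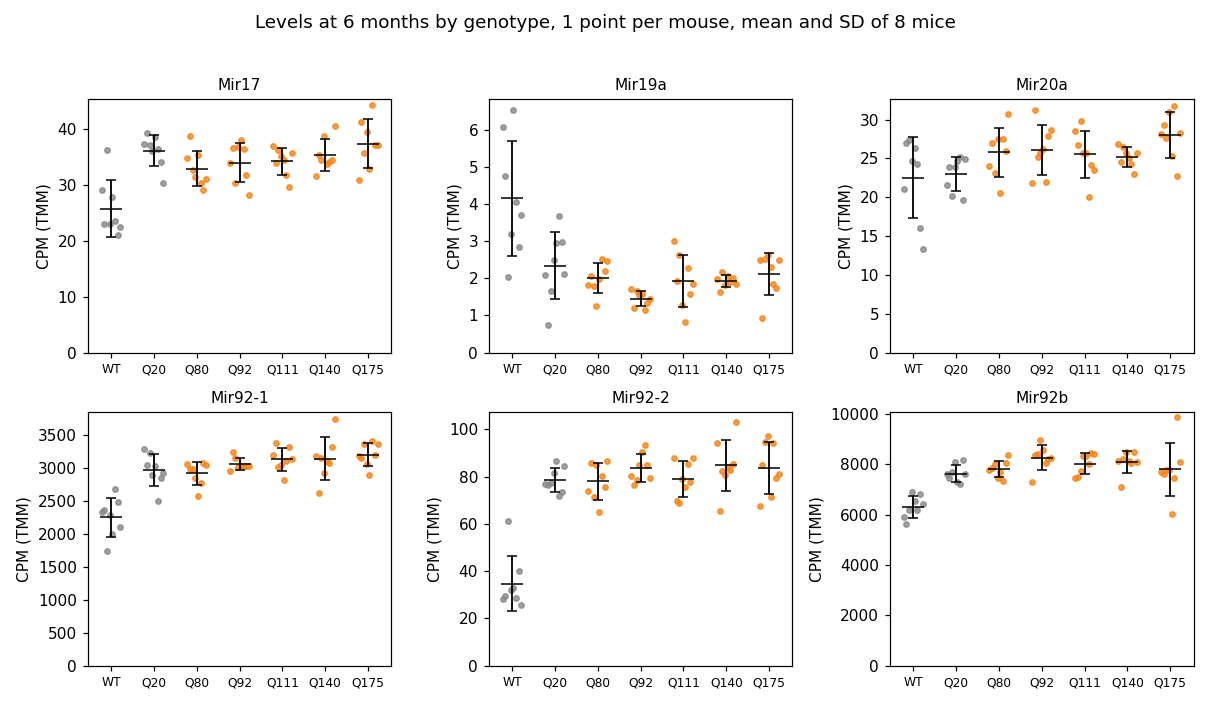
TMM-normalized CPM (y axis from 0) of 6 members at 6 months in 7 genotypes (x axis), 1 point per mouse, with the mean and SD of 8 mice; WT and Q20 are in grey. The WT libraries lie below the others in Mir92-2 and above most in Mir19a.

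In bulk tissue, fewer cells of a type and less RNA per cell cannot be told apart. Of the 8 neuronal markers tested (of 9 listed), 4 fell in Q175 mice at 10 months (Mir128-1, Mir128-2, Mir132 and Mir124a-3), and none rose. The summed level of the 8 ranged from 59724 to 67465 CPM in Q175 and from 59025 to 76841 in controls. Of 3 markers of microglia and blood leukocytes, 2 of oligodendrocytes, 3 of vascular cells and 1 of erythrocytes, none passed in this comparison, and of 5 of choroid plexus and ependyma, Mir204 fell. Mir204 did not pass for Q at 10 months (slope -0.13, adjusted p = 0.682, edgeR), where 2 of the neuronal markers did. The summed level of the 5 was 3172 to 3745 CPM in Q175 and 3152 to 12558 CPM in controls (median 4201). The summed vascular level was 16765 to 21203 CPM in Q175 and 16431 to 23698 in controls, and no list tested had a marker with a median of 0. Their part in the differences of the members was not tested.

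Over the means of the 20 genotype and age groups, the tested microRNA outside the members most like each member was named as a description. Mir92-1 (Pearson r = 0.98) and Mir92-2 (0.92) were both most like Mir744. Mir92b was most like Mir412 (0.97), Mir25 like Mirlet7i (0.94) and Mir93 like Mir101b (0.94). Mir19a was most like Mir154 (0.89), Mir17 like Mir130a (0.88), Mir18 like Mir324 (0.83), Mir20a like Mir181a-1 (0.74) and Mir106a like Mir470 (0.55). The groups of 1 age share a set of libraries.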

How the data were processed

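Small RNA of mouse cortex was sequenced from 8 mice per group, and the values deposited by the authors are estimated counts per Ensembl transcript, made from adapter-clipped reads mapped with STAR and not normalized. A table of FPKM was not used. Estimated counts were rounded and tested with edgeR 4.0.16 in R 4.3.3 (TMM, robust quasi-likelihood F test, library sizes over all transcripts). Covariates were the sex of the cage and, at 6 months, the sex of the label and the library code (V in 11 libraries). The features were the microRNAs of a symbol list of the study with a matching transcript (329 of 480) and Mir92-1, which the list lacks. The comparisons on shared lane numbers held no lane term, and that of Q111 with Q20 held no sex term. MicroRNAs with a total of 0 in a fit were dropped from it. The meta-analysis divided the sum of Z statistics by the square root of their number. Ratios used a pseudocount of 0.5 CPM and 100000 permutations, two-sided, within sex and library code. Each SE is the coefficient divided by the root of its F statistic. The members, the relatives and the marker lists were chosen with earlier results of these data known. All members are named; relatives are named only where they pass. DESeq2 1.42.0 was an alternative. The code was tested on simulated data. Replicates are separate mice.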

Additional observations from a re-analysis of the deposited data

Results flagged for a closer look

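In 210 groups of 8 mice (10 members, 21 genotype and age groups), 13 values were separated from the nearest value of their group by a gap that Dixon's criterion marks as large for the range of the group. Chance gives such a value in about 1 in 20 groups.

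Q140 mouse F2 at 10 months stood apart in 3 members. Mir25 was at 810 CPM (group median 512), Mir92-1 at 3074 CPM (1845) and Mir20a, in the other direction, at 18.8 CPM (28.5). Its connectivity to the other libraries of that age was also low. With the libraries of low connectivity left out, the slope of Mir92-1 at 10 months had an adjusted p of 0.0655 and that of Mir20a one of 0.0334 (edgeR).

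In other groups of 10 months, Mir20a was at 30.4 CPM in Q80 mouse M2 (24.7), Mir92b at 6618 CPM in Q111 mouse M2 (5346) and Mir106a at 1.19 CPM in Q140 mouse F1 (0.09). At 2 months, Mir92-1 was at 2323 CPM in Q20 mouse M4 (1961), Mir92-2 at 80.0 CPM in Q140 mouse F2 (66.98) and at 74.0 CPM in Q175 mouse M1 (64.2), and Mir92b at 8972 CPM in Q92 mouse M2 (7011). At 6 months, Mir92-2 was at 61.4 CPM in WT mouse F3 (30.8), Mir92b at 7100 CPM in Q140 mouse F2 (8121) and Mir106a at 0.90 CPM in Q92 mouse M3 (0.11). The values of Mir106a are of a few counts.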

How the results depend on the processing

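The count of members past the threshold at 6 months was 0 and became 1 (Mir20a) with RLE size factors, filterByExpr, Mir92-1 and Mir92-2 summed, outlier counts replaced, the replicate block or the symbol list without Mir92-1, which was chosen after seeing the data, 2 with library size alone, and 6 with the 6-month WT libraries. Over all microRNAs the count at this age was 4 and lay between 0 (LB libraries only, lane as a covariate or without the Q175 mice) and 163 (with the 6-month WT libraries). It was 9 with the symbol list without Mir92-1. The 4 calls were upward, and 6 of 8 were so with RLE size factors, 11 of 14 with library size alone and 6 of 10 with DESeq2. At 10 months the count of members was 3 and became 1 with all transcripts, 5 with Q20 as the only controls, 4 with DESeq2, with lane as a covariate or with the symbol list without Mir92-1, and 0 without the Q175 mice, where 1 microRNA in all passed against 28. In Q175 mice at 10 months it was 4 and became 2 with all transcripts and 1 with Q20 as the only controls. In the meta-analysis it was 4 and became 1 without the Q175 mice, where 3 microRNAs in all passed, against 106 with the 6-month WT libraries. It became 1 in Q111 mice at 10 months (Mir92-1, outlier libraries removed), 1 for the change of slope between 2 and 10 months (lane as a covariate; 15 microRNAs in all) and 1 for the ratios (Mir106a to Mir92-2 at 10 months, pseudocount 5 CPM). Mir106a had a mean of 0.29 CPM, so with 5 CPM added this ratio mostly follows Mir92-2 alone. It cannot show that the neighbours moved apart. The cause of the other changes was not tested.

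No reversal concerned a call. Without the Q175 mice, the slope of Mir17 at 6 months was -0.0315, that of Mir19a at 10 months -0.0829, that of Mir25 at 10 months 0.0248, and the meta-analysis Z of Mir19a -1.29. With the 6-month WT libraries, Z was -1.40 for Mir19a and 0.15 for Mir25, the slope of Mir25 at 6 months 0.0365, and the difference of Mir106a in Q175 mice at 6 months -0.11. With LB libraries and lane as a covariate, the slope of Mir19a at 6 months was 0.0708 and Z of Mir93 0.65. The change of slope of Mir25 was 0.0136 with outlier libraries removed, 0.0008 with the labels' sex and 0.005 with the replicate block; that of Mir93 was -0.0178 with library size alone, -0.0021 with lane and -0.0044 with the list without Mir92-1. In controls, Mir92-2 lost its call between ages with Q20 as the only controls (adjusted p = 0.237, edgeR), and the age difference of Mir25 was -0.0308 with library size alone, -0.003 with all transcripts and -0.0487 with outlier libraries removed. With library size alone, 60 of all microRNAs rose with age and 102 fell, against 75 and 84.

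A replicate number pairs no mice: WT and Q20 mice of a sex shared a cage at 2 and 10 months whatever their number. Same-numbered mice had deviations with a mean r of -0.052 at 2, -0.057 at 6 and -0.016 at 10 months, and only 5, 4 and 7 libraries correlated best with their own number. The replicate block left 3 members called at 10 months, 3 in Q175 mice (Mir20a lost its call) and 4 in the meta-analysis. Depth limits Mir18, Mir19a and Mir106a.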
